A study of Mus musculus with 6 samples.

Results

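Kinesins, cytoplasmic dynein-1 and dynactin are the motors that move vesicles, organelles and mRNA along microtubules. The genes described here are those whose mouse symbol starts with Kif, with Klc and a digit, with Dync1 or with Dctn and a digit. The rule leaves out 15 named genes, which are the heterotrimeric kinesin-2 subunits and Kif17, the ciliary kinesins Kif7 and Kif24, and several kinesins of the mitotic spindle. Of 32061 genes in the table, 63 matched these symbols and 48 remained. Enough reads for testing were present for 41 of the 48, and 7 had at most 5 summed counts in either group. The label "transport" does not cover all of them, since the rule keeps Kif14, Kif15, Kif18b, Kif22, Kif2b, Kifc1 and Kifc5b, which act mainly on chromosomes or the spindle. They are therefore described as a group of their own.

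Kinesins walk mostly towards the plus end of the microtubule and dynein-1 walks towards the minus end. Kinesin-1 is built from a pair of heavy chains, which hold the motor, and a pair of light chains, which bind cargo. Dynein-1 is built on a large heavy chain with intermediate, light intermediate and light chains, and needs the multi-subunit complex dynactin and an adaptor protein to move over long distances. In epithelial cells with an apical and a basal side, microtubules run along that axis and motors sort cargo between both sides.

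Poly-A RNA was sequenced from 6 cultures of mouse biliary epithelial cells, the lining cells of the bile ducts, grown first as organoids and then as a flat layer on collagen. The comparison asked how expression differs between cells that carry primary cilia and cells that lack them. The 3 competent samples had no 4OHT, and the 3 depleted samples had 4OHT, the usual abbreviation of 4-hydroxytamoxifen, which activates tamoxifen-dependent Cre recombinases. The drug and the loss of cilia coincided in every sample, so their effects cannot be told apart. The labels name no strain, age, sex, allele or Cre driver, and do not say whether the replicates of a group came from separate animals or cultures. The p-values therefore measure only how these samples scatter, and that scatter may be technical. Total counts ran from 32199606 to 36093068 in the competent and from 26293486 to 36998935 in the depleted samples. Wdr35, taken from knowledge of the study as the deleted gene, had 33.3 ± 1.98 CPM (counts scaled to the size of the library) in competent and 28.0 ± 1.6 in depleted samples (SD, n = 3; adjusted p = 0.00245, edgeR). Whether an exon was removed cannot be seen from counts summed over the gene. All 7 biliary markers checked were present, with Krt7 highest at 3150 and 2471 CPM and Krt19 lowest at 12.5 and 8.33 CPM; 2 of them rose and 5 fell in depleted cells, and their sum went from 7291 to 7431 down to 5446 to 5691 CPM. The summed level of 4 endothelial markers was 0 to 0.142 CPM in competent and 0.198 to 0.436 CPM in depleted samples. Among 5 stellate and fibroblast markers it was 1.19 to 1.57 and 2.75 to 3.49 CPM, nearly all of it Col1a1. Among 4 immune markers it was 3.32 to 3.85 and 5.24 to 6.18 CPM, nearly all of it Cd68. Hepatocyte markers summed to 18.4 to 25.4 and 15.6 to 17.4 CPM, and 5 neuron markers to 18.8 to 22.1 and 14.4 to 16.5 CPM, nearly all of it Syt1, which fell (log2 change -0.45). Their part in the results below was not tested.

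Of the 41 genes tested, 16 rose, 11 fell and 14 did not pass in the depleted cells (edgeR quasi-likelihood test, Benjamini-Hochberg adjusted p below 0.05). Changes were common across the genome: of 13839 genes tested, 69.2% were called, 34.9% as higher and 34.3% as lower. The motor genes, of which 65.9% were called, were thus close to that background, and their number says nothing particular about motors. The groups of 3 samples did not overlap for 28 of the 41, against 72.5% of all genes. Above 1.5-fold 7 of the 41 rose and 3 fell, which is close to the 28.4% of all genes that passed the same rule. Of the 41, 3 changed more than 2-fold. The median log2 change was 0.13, and -0.006 over all genes. In bulk RNA, fewer cells of a type and less RNA per cell cannot be told apart. The plot of changes by role shows where the direction divided: all 6 mitotic kinesins rose, the main kinesin-1 heavy chain Kif5b fell, and 4 of 6 Dctn genes fell.

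**Figure D1:**
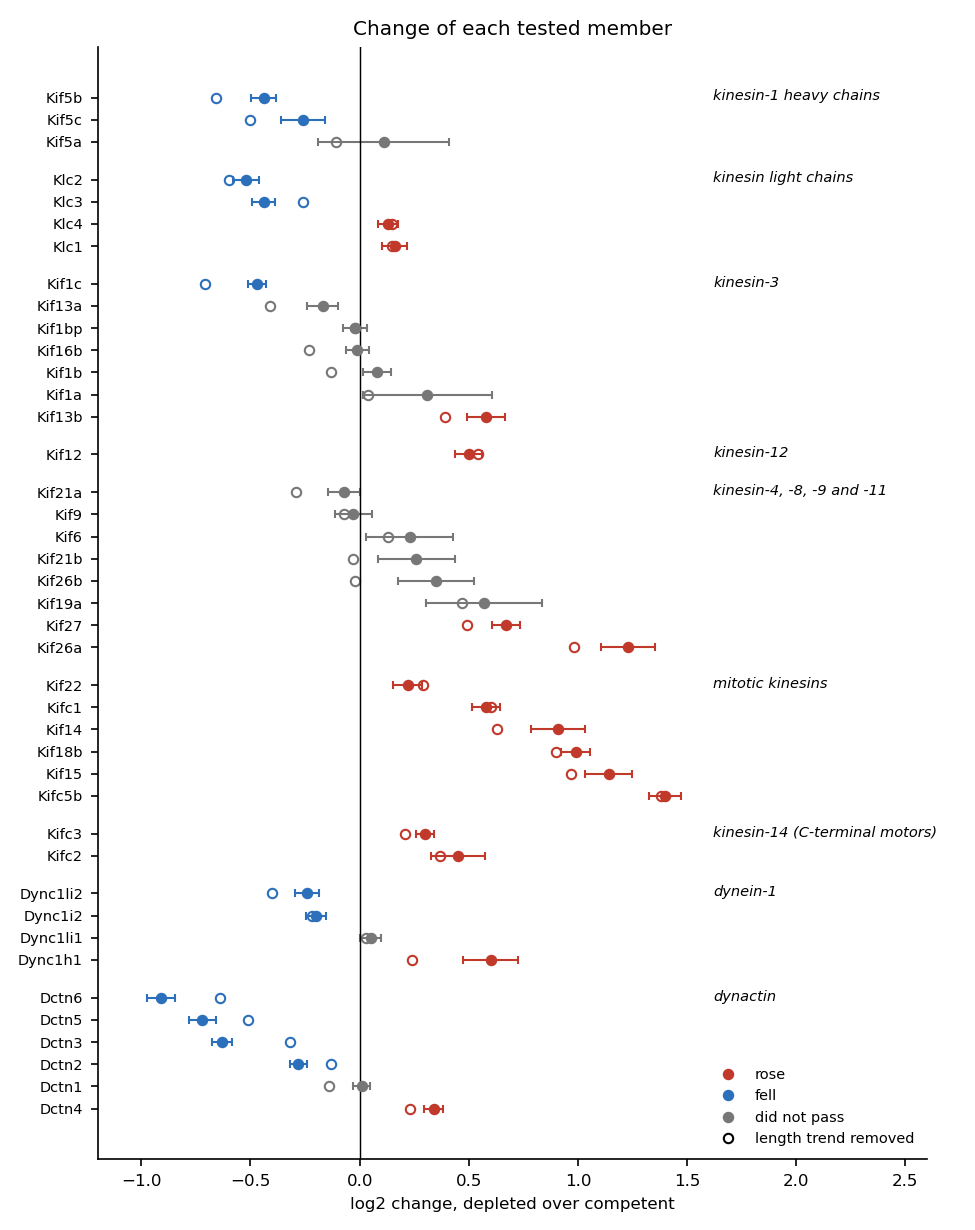
The log2 change of each of the 41 tested genes (depleted over competent), grouped by role, with filled points and standard-error bars from edgeR and open circles after removal of the trend with transcript length. Red points rose, blue points fell and grey points did not pass. The 6 mitotic kinesins lie between 0.22 and 1.40, and Dctn6 lies lowest at -0.91.

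The libraries differed by transcript length, and this touches every value that follows. Over 13831 genes Spearman's rho between the length of the main transcript and the log2 change was 0.322, with a median change of -0.29 for transcripts under 1500 nt and 0.27 for those of 6000 nt or more. Across the 41 motor genes, which share the same libraries and are not replicates, rho was 0.324. It was 0.782 across the 10 dynein-1 and dynactin genes and 0.0178 across the 31 others. When a smooth curve of change on length was removed from each library, all 27 calls kept their direction and 5 genes were added to those that fell, giving 16 higher and 16 lower. With that correction 33.9% of all genes were higher and 35.1% lower. The median log2 change of the 41 motor genes was then -0.02 in place of 0.13, and 0 over all genes. The 5 were Kif1b, Kif13a, Kif16b and Kif21a, with transcripts of 5992 to 6866 nt, and Dctn1, with 4292 nt. Whether the trend is a property of the cells or of the libraries was not tested.

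**Figure D2:**
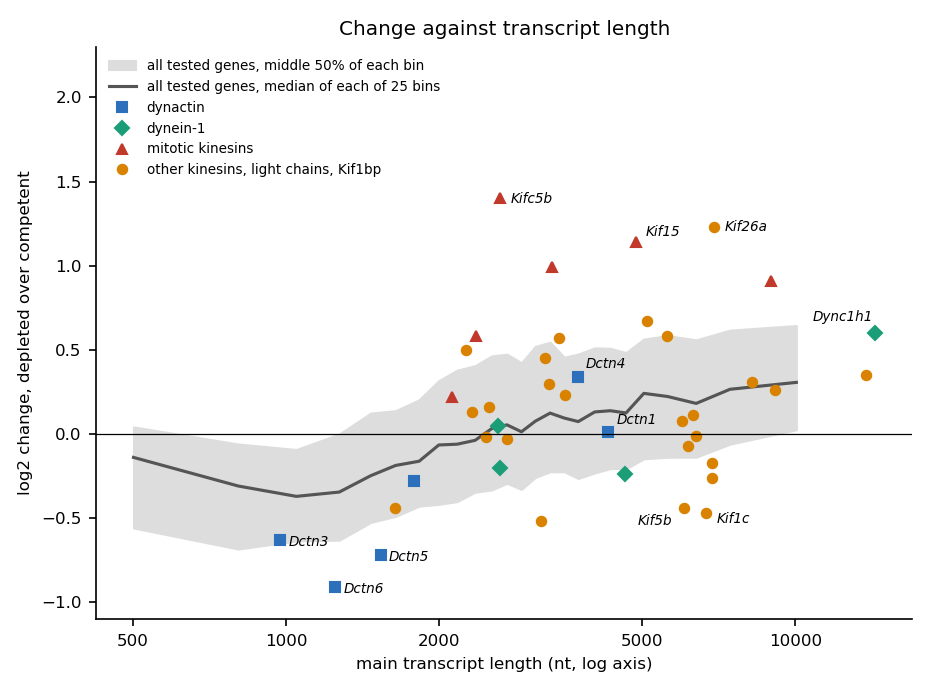
Log2 change (depleted over competent) against main transcript length in nucleotides on a log axis, with the median and the middle 50% of all tested genes in 25 bins of equal gene number as a line and a band. Dctn3, Dctn5 and Dctn6 lie low at the short end, Kif5b and Kif1c lie below the band at the long end, and Dync1h1 has the longest transcript of the motor genes.

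Competent replicate 1 stood apart for long transcripts. Against the mean of the other competent samples its median log2 deviation was -0.22 for the 283 genes of 10000 nt or more, and 0.03 for genes under 1500 nt. Within the depleted group the same deviation for long genes was between -0.06 and 0.10. Without that sample 17 motor genes rose and 13 fell.

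The promoters of the mitotic kinesins are shown first, because all 6 tested genes of this group rose, where 34.9% of all genes rose. Several other spindle kinesins are left out by the symbol rule and do not count in this group. RefSeq promoters on GRCm38.p6, from 250 bases before to 50 bases after the annotated start, were available for 30 of the 41 genes (matched by symbol, with Kif1bp listed as Kifbp). The motif known as the cell cycle homology region, TTTGAA, was searched on both strands. It was present in 6 of 6 mitotic kinesins, in 4 of the 24 other genes and in 17.9% of all 32851 promoters. The promoters of Kifc1 and Kifc5b are near copies of each other, so the 6 are not all separate observations. A match describes the letters and does not show a bound site. In the sequences below, which run from 100 bases before to 10 bases after the start in the direction of the gene, the capitals mark the motif or its reverse complement. This window holds the motif in 4 of the 6 mitotic kinesins, which are the 4 shown, in 3 of the 24 other genes and in 6.18% of all promoters.
Kif15 (GRCm38.p6 chr9:122950981-122951090, plus strand): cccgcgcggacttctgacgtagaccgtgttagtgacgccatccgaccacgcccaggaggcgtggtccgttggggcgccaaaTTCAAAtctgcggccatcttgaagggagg
Kif18b (GRCm38.p6 chr11:102925115-102925224, minus strand): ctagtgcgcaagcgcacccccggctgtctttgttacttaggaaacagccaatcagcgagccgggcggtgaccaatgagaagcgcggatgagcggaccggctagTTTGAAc
Kif22 (GRCm38.p6 chr7:127042411-127042520, minus strand): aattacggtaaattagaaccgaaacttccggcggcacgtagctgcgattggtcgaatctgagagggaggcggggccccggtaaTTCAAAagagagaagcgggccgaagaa
Kifc1 (GRCm38.p6 chr17:33890624-33890733, minus strand): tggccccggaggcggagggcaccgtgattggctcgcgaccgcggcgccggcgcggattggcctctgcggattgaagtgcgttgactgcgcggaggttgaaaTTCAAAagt

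In Kif15 and Kif22 the motif starts 19 and 17 bases before the annotated start, in Kif18b and Kifc1 just after it. Kif14 and Kifc5b hold it outside this window. The promoter used for Kif14 (chromosome 1, 136467598 to 136467897) lies inside the gene as annotated in GENCODE, which begins at 136466343. The promoters that hold the motif in Dctn1, Kif1a and Kif27 also lie inside their annotated genes. The CCAAT box (CCAAT, either strand) was present in 5 of the 6 mitotic kinesins, in 10 of the 24 other genes and in 37.4% of all promoters. Those 5 include the near copies Kifc1 and Kifc5b, and Kif14 with the promoter inside its gene. The AP-1 motif TGACTCA was in none of the 30 genes and in 5.20% of all promoters.

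Kif15, Kif18b and Kifc5b rose most among the mitotic kinesins. Kif15, a plus-end motor that helps to hold the bipolar spindle, had 5.37, 7.16 and 7.46 CPM in the competent samples and 14.9, 14.7 and 14.6 CPM in the depleted samples. The groups were well apart, and the depleted samples were almost equal (2.20-fold, log2 change 1.14, SE 0.108, adjusted p = 5.74e-07). Kif18b, which shortens astral microtubules, had 12.3, 14 and 13.6 CPM in competent and 26.2, 26.5 and 26.6 CPM in depleted samples. It stood 1.99-fold higher (adjusted p = 1.79e-08). Kif14, needed for the end of cell division, was at 5.33 ± 0.890 and 10.1 ± 0.900 CPM (SD, n = 3), a 1.88-fold rise (adjusted p = 1.91e-05). Kif22, which pushes chromosome arms, rose least, 1.17-fold (adjusted p = 0.00873).

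Kifc1 and Kifc5b, minus-end motors of the spindle, are near copies. Of the 50-base stretches of the main Kifc5b transcript, 40.9% also occur in Kifc1 transcripts, so reads could be split between them and the separate values are uncertain. Kifc5b had 10.1, 10.8 and 10.6 CPM in competent and 30.2, 27.7 and 25.5 CPM in depleted samples, a 2.64-fold rise (adjusted p = 2.12e-09). Kifc1 had 32.1, 35.8 and 36.7 CPM against 53.5, 54.9 and 48.2 CPM, a 1.49-fold rise (adjusted p = 2.58e-06). No sample of either gene overlapped the other group.

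Other proliferation genes did not all go the same way. Of 12 on a list of cell cycle genes, 4 rose and 6 fell, 2 did not pass, and the median log2 change was -0.09. The proliferation antigen Mki67 rose (log2 change 0.79) and so did Cenpe, a kinetochore kinesin outside the symbol rule (0.71), Aurka (0.33) and Top2a (0.27). Mki67 and Cenpe have long main transcripts, and their log2 changes were 0.48 and 0.45 with the length trend removed. Falling genes were Ccnb2 (-0.50), Ube2c (-0.40), Ccnb1 (-0.39), Ccna2 (-0.34), Cdk1 (-0.30) and Aurkb (-0.22), and Bub1 and Plk1 did not pass. The summed level of the 12 was 473 to 556 CPM in competent and 562 to 589 CPM in depleted samples, and its part in the rise of the mitotic kinesins was not tested. With the length trend removed 3 rose and 4 fell, and all 6 mitotic kinesins still rose, with a median log2 change of 0.76 in place of 0.95.

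Kinesin-1 heavy chains were lower. Kif5b, the heavy chain found in nearly all cell types, had 350.2, 419 and 390.1 CPM in the competent samples and 283, 293 and 277 CPM in the depleted samples. Every depleted sample lay below every competent sample (1.36-fold lower, log2 change -0.44, SE 0.059, adjusted p = 1.46e-05). Its main transcript is 6032 nt long, a length at which the median gene was higher, and with the length trend removed it was 1.58-fold lower. Kif5c, which is enriched in neurons, was scarce, with 6.96, 7.98 and 8.34 CPM against 6.26, 6.48 and 6.68 CPM. Its fall of 1.2-fold was close to the threshold (adjusted p = 0.0371), and it was lost with DESeq2 (adjusted p = 0.0949) and without any of the samples other than competent replicate 1 (adjusted p from 0.0515 to 0.127). Kif5a, the other neuronal heavy chain, was at 0.563 ± 0.0840 and 0.606 ± 0.148 CPM (SD, n = 3) and did not pass (adjusted p = 0.767).

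The kinesin light chains divided. Klc2 had 49.9, 43.9 and 44.2 CPM in competent and 31.4, 31.4 and 33.0 CPM in depleted samples, a 1.44-fold fall (adjusted p = 3.04e-06). Klc3 had 37.2, 37.1 and 37.1 CPM against 27.2, 25.9 and 28.7 CPM, a 1.36-fold fall (adjusted p = 5.65e-06). Both falls left a clear gap between the groups. However, 28.1% of the exon length of Klc3 overlaps the DNA repair gene Ercc2 on the opposite strand, and although the library kit marks strand, the strand setting of the counting is not given in the sources used here. An opposite-strand gene also overlaps 10.6% of the exon length of Klc2, so the same limit holds for it.

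Klc4 and Klc1 were slightly higher. Klc4 had 78.2, 78.6 and 76.1 CPM in competent and 87.9, 85.4 and 80.8 CPM in depleted samples (1.09-fold, adjusted p = 0.0241). Klc1 had 67.5, 68.5 and 61.8 CPM against 78.8, 73.8 and 68.6 CPM (1.12-fold, adjusted p = 0.0251). The groups touched almost for Klc1, whose highest competent and lowest depleted samples were nearly equal. Upper-quartile scaling ended both calls (adjusted p = 0.161 for Klc4 and 0.112 for Klc1), and so did leaving out competent replicate 3, depleted replicate 1 or depleted replicate 2 (adjusted p from 0.0609 to 0.149 for Klc1 and from 0.0726 to 0.110 for Klc4). Klc4 was also lost with DESeq2 (adjusted p = 0.0531), without a filter on low counts (0.0528) and without competent replicate 2 (0.0504).

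**Figure D3:**
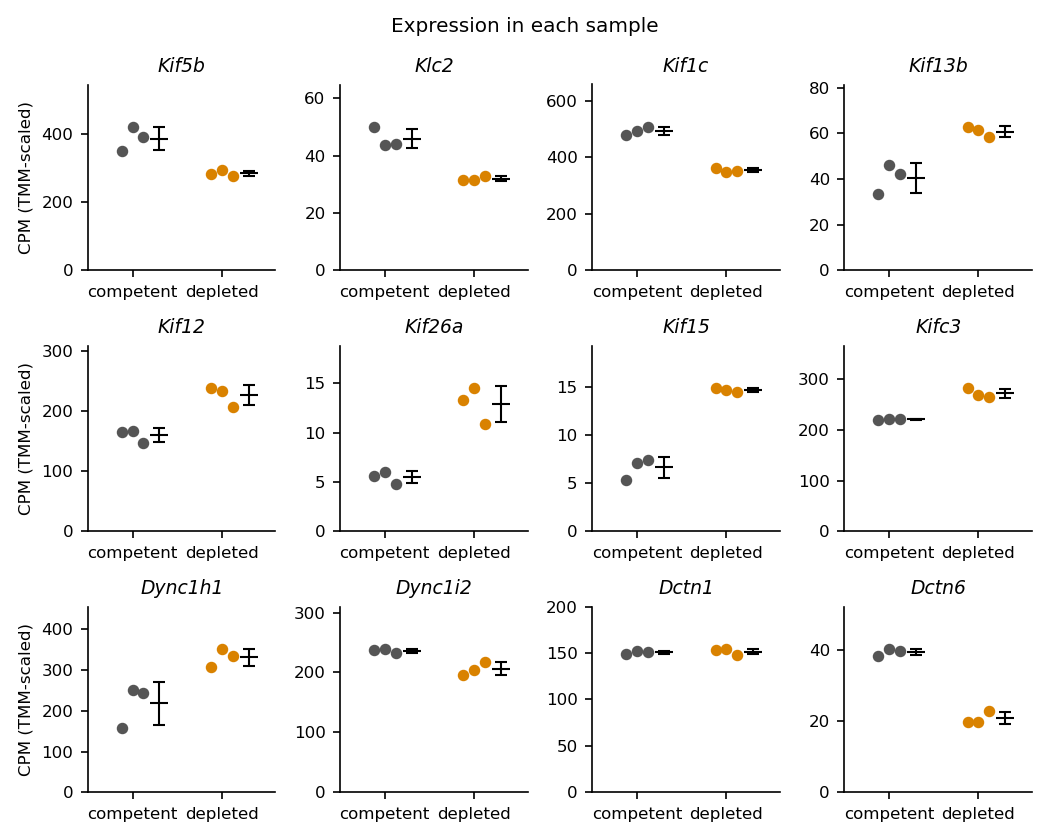
CPM scaled by the trimmed mean of M values (TMM) in each of the 6 samples for 12 genes, with the mean and SD of each group (n = 3) beside the points and axes starting at 0. Kif1c, Klc2 and Dctn6 separate downwards and Kif15, Kif26a and Kif12 upwards, Dctn1 is level, and competent replicate 1 of Dync1h1 lies at 158 CPM, far below the other competent samples.

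Kinesin-3 motors carry endosomes, secretory vesicles and synaptic vesicle precursors. Kif1c, which moves vesicles and mRNA, had the highest CPM of all motor genes, with 478, 493 and 506 CPM in competent and 364, 348 and 352 CPM in depleted samples. It fell 1.39-fold (log2 change -0.47, SE 0.0424, adjusted p = 3.31e-07), and 1.63-fold with the length trend removed. The gene lies on chromosome 11 from 70700548 to 70731964, plus strand (GRCm38). Kif13b, which transports membrane receptors and binds the polarity protein Dlg1, went the other way, with 33.4, 46.0 and 42.0 CPM against 62.6, 61.5 and 58.3 CPM. Its rise was 1.5-fold (log2 change 0.58, adjusted p = 4.71e-05), or 1.38-fold without competent replicate 1, the lowest sample. With the length trend removed the rise was 1.31-fold.

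The paralog Kif13a, which carries the mannose-6-phosphate receptor and recycling endosomes, just missed the threshold at 57.5 ± 1.93 and 51.3 ± 6.27 CPM (SD, n = 3; log2 change -0.17, adjusted p = 0.0512). Its call was unsettled. It passed as a fall after removal of the length trend (log2 change -0.41, adjusted p = 3.00e-05), under upper-quartile scaling (adjusted p = 0.0141), with limma-voom (0.0362), without a filter on low counts (0.00371), and without competent replicate 1 (0.0391) or depleted replicate 1 (0.00321). Kif16b, a motor of early endosomes, was at 56.5 ± 3.13 and 56.1 ± 1.52 CPM (adjusted p = 0.877), and Kif1b, which moves mitochondria and synaptic vesicle precursors, at 76.5 ± 7.23 and 80.9 ± 3.53 CPM (adjusted p = 0.271). Both passed as lower with the length trend removed, by log2 changes of -0.23 and -0.13. Kif1bp, which encodes a binding partner that keeps several kinesins off the microtubule and is no motor, did not pass (37.7 ± 1.76 and 37.2 ± 1.97 CPM, adjusted p = 0.799). Kif1a, a neuronal motor, was near the limit of detection at 0.467 ± 0.0129 and 0.574 ± 0.116 CPM (adjusted p = 0.363).

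Kif12 is a kinesin of polarised epithelia such as kidney tubules and bile ducts, and variants of the human gene cause a cholestatic liver disease in children. It had 165, 167 and 148 CPM in the competent samples and 238, 233 and 207 CPM in the depleted samples. All depleted samples were higher than all competent ones (1.41-fold, log2 change 0.50, SE 0.0609, adjusted p = 7.02e-06). Length hardly touched it, since the log2 change was 0.54 with the trend removed. Per kilobase of main transcript, Kif12 was at 71.1 ± 4.81 RPKM (CPM per kilobase) in competent and 100.4 ± 7.39 RPKM in depleted cells. That gave it rank 5 among the motor genes in competent cells and rank 1 in depleted cells. On GRCm38 the gene lies on chromosome 4 from 63165630 to 63172131, minus strand.

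Among the less common families, Kif26a changed most of all genes outside the mitotic group. Kif26a, an atypical kinesin that binds microtubules without moving along them, had 5.67, 6.03 and 4.81 CPM in competent and 13.3, 14.5 and 10.9 CPM in depleted samples. It rose 2.34-fold (log2 change 1.23, SE 0.122, adjusted p = 9.64e-07), and 1.98-fold with the length trend removed. Its promoter is shown because this was the largest rise of a kinesin that is not mitotic; the capitals mark the reverse complement of GCGGGGGCG, a motif of the EGR transcription factors, 16 bases before the start. The motif or its variant GCGTGGGCG was in 4 of the 24 non-mitotic genes with a promoter, in 0 of 6 mitotic ones and in 3.47% of all promoters. The other 3 genes were Klc3, which fell, and Dync1li1 and Kif16b, which did not pass.
Kif26a (GRCm38.p6 chr12:112146108-112146217, plus strand): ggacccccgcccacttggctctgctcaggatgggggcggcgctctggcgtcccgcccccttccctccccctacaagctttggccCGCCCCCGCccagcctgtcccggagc

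Kif27, a relative of the Hedgehog regulator Kif7 that serves motile cilia, had 20.0, 18.7 and 19.1 CPM in competent and 30.7, 32.6 and 28.5 CPM in depleted samples. It rose 1.59-fold (adjusted p = 6.14e-07), and 1.40-fold with the length trend removed. None of the 6 others of these families passed. Kif21a and Kif21b, which pause microtubule growth, were at 28.6 and 1.99 CPM in competent cells, and Kif9 and Kif6, linked to motile cilia and flagella, at 11.2 and 3.32 CPM. Kif26b was at 5.35 and Kif19a, which controls the length of motile cilia, at 1.01 CPM. Their log2 changes lay between -0.07 and 0.57. Kif19a had the largest of these but scattered between samples (adjusted p = 0.0731). Kif26b passed as a rise without a filter on low counts and without competent replicate 3 or depleted replicate 2, but its log2 change of 0.35 became -0.02 with the length trend removed (adjusted p = 0.942). Kif19a passed without a filter and without competent replicate 2 or depleted replicate 3. Without competent replicate 1, Kif6 passed as higher (adjusted p = 0.0320) and Kif21a as lower (adjusted p = 0.0302).

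The C-terminal motors outside the spindle rose. Kifc3, which works at adherens junctions and on apical transport in epithelia, had 220, 222 and 222 CPM in competent and 282, 269 and 265 CPM in depleted samples, a 1.23-fold rise (adjusted p = 2.24e-05). Competent samples were almost equal, and no depleted sample came near them. The limit given for Klc3, that the strand setting of the counting is not known, holds for Kifc3 too. Kifc2 had 4.70, 4.53 and 3.88 CPM against 6.42, 6.27 and 5.30 CPM, a 1.37-fold rise (adjusted p = 0.00533).

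The chains of dynein-1 went in different directions. Dync1h1, the only heavy chain of cytoplasmic dynein-1, had 158, 252 and 245 CPM in the competent samples and 309, 351 and 335 CPM in the depleted samples. The groups did not overlap, but competent replicate 1 was far lower than the others, and the transcript is 14342 nt long, within the range in which that library was low as a whole. Dync1h1 rose 1.52-fold (log2 change 0.60, SE 0.127, adjusted p = 0.00084), 1.33-fold without competent replicate 1 (adjusted p = 1.19e-05), and 1.18-fold with the length trend removed (adjusted p = 0.0162). The size of the rise thus moved with both.

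Dync1i2, the intermediate chain that links the heavy chain to dynactin, had 237, 239 and 232 CPM in competent and 196, 205 and 217 CPM in depleted samples, a 1.15-fold fall (adjusted p = 0.00188). Dync1li2, a light intermediate chain that binds adaptors, had 167, 175 and 171 CPM against 158, 144 and 134 CPM, a 1.18-fold fall (adjusted p = 0.00138). The groups did not overlap for either, although the gap was narrow. The other light intermediate chain, Dync1li1, was at 84.4 ± 0.839 and 87.6 ± 5.49 CPM (SD, n = 3) and did not pass (adjusted p = 0.361). Dync1i1, the neuronal intermediate chain, had 2 counts in all competent samples together and 5 in all depleted ones and was not tested. The level per kilobase of Dync1i2 over that of Dync1h1 was 8.18, 5.16 and 5.16 in competent and 3.45, 3.18 and 3.53 in depleted samples, a ratio chosen after the values were seen. It sets a transcript of 2631 nt against one of 14342 nt and was not corrected for the length trend. With the trend removed the log2 changes were -0.22 for Dync1i2 and 0.24 for Dync1h1, in place of -0.2 and 0.6.

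Of the 6 Dctn genes, 4 fell, 1 rose and 1 did not pass, where 34.3% of all genes fell and 34.9% rose. Dctn6, which caps the pointed end of the dynactin filament with Dctn5 and lies on chromosome 8 from 34090420 to 34108796, minus strand (GRCm38), had 38.5, 40.3 and 39.9 CPM in competent and 20.0, 19.9 and 23.0 CPM in depleted samples. An opposite-strand gene overlaps 11.8% of its exon length, so the limit on strand given for Klc3 holds here too. No other of the 41 genes fell further (1.89-fold, log2 change -0.91, SE 0.0627, adjusted p = 2.59e-08). Dctn5 had 51.7, 50.2 and 48.9 CPM against 27.8, 30.5 and 32.8 CPM, a 1.65-fold fall (adjusted p = 1.64e-07). Dctn3, the p24 subunit of the shoulder that joins the projecting arm to the filament, had 81.5, 75.3 and 76.9 CPM against 50.03, 50.8 and 50.1 CPM, a 1.55-fold fall (adjusted p = 4.81e-08). Their main transcripts measure 1249, 1532 and 973 nt, lengths at which the median gene was lower. With the length trend removed the falls were 1.56-fold for Dctn6, 1.42-fold for Dctn5 and 1.25-fold for Dctn3, and all kept an adjusted p below 0.05.

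Dctn2, the shoulder subunit known as dynamitin, had the highest level per kilobase in competent cells. It was at 116 ± 0.538 RPKM in competent and 95.3 ± 2.54 RPKM in depleted cells (SD, n = 3). In CPM it had 207, 206 and 206 against 167, 167 and 175, a 1.21-fold fall (adjusted p = 3.22e-05). With the length trend removed the fall was 1.10-fold. Dctn1, the p150Glued subunit that holds microtubules and binds the dynein intermediate chain, was level, with 149, 152 and 151 CPM in competent and 153, 154 and 148 CPM in depleted samples (log2 change 0.01, SE 0.0393, adjusted p = 0.887). With the length trend removed it passed as a fall (log2 change -0.14, adjusted p = 0.00248). Dctn4, another pointed-end subunit, was the dynactin subunit that rose, from 89.4 ± 3.14 to 113 ± 3.23 CPM (1.27-fold, adjusted p = 1.03e-05). Its rise was 1.17-fold with the length trend removed.

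Subunits of both complexes that the symbol rule does not cover fell together. Of 8 dynein light chains tested, 8 fell, with a median log2 change of -1.04, and of 6 further dynactin subunits 6 fell, with a median of -0.46, where 34.3% of all genes fell. All 14 remained lower with the length trend removed, at medians of -0.84 and -0.42. Among the light chains, Dynlt1f, Dynlt1c, Dynlt1b and Dynlt1a fell by 1.42, 1.38, 1.36 and 1.35 on the log2 scale. They are near-identical copies, with 59.4% to 93.7% of their 50-base stretches found in other genes, so they do not count as 4 separate observations. Taken once, at their median, they left 5 light chains, all lower, with a median of -0.65, or -0.55 with the length trend removed. Dynll1, a hub light chain shared with myosin V, had 179 ± 3.1 and 108 ± 3.1 CPM (log2 change -0.73, adjusted p = 3.90e-09), and Dynlrb1, Dynlt3 and Dynll2 also fell. Of the further dynactin subunits, Capzb (log2 change -0.58) and Actr1a, the Arp1 filament subunit (-0.57), fell most, followed by Actr10 (-0.51) and Capza2 (-0.41). Capping proteins also cap actin, and 73.8% of the Capza1 transcript is shared with other genes, mainly a copy.

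The dynein regulators were mixed. Ndel1 (log2 change 0.53) and Pafah1b1, which encodes the lissencephaly protein Lis1 (0.30), rose. Nde1 (-0.45) and Nudc (-0.29) fell, and the plus-end protein gene Clip1 did not pass (adjusted p = 0.663). The fall of Nudc did not pass with the length trend removed (log2 change -0.03), and 32.8% of its 50-base stretches occur in another gene.

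**Figure D4:**
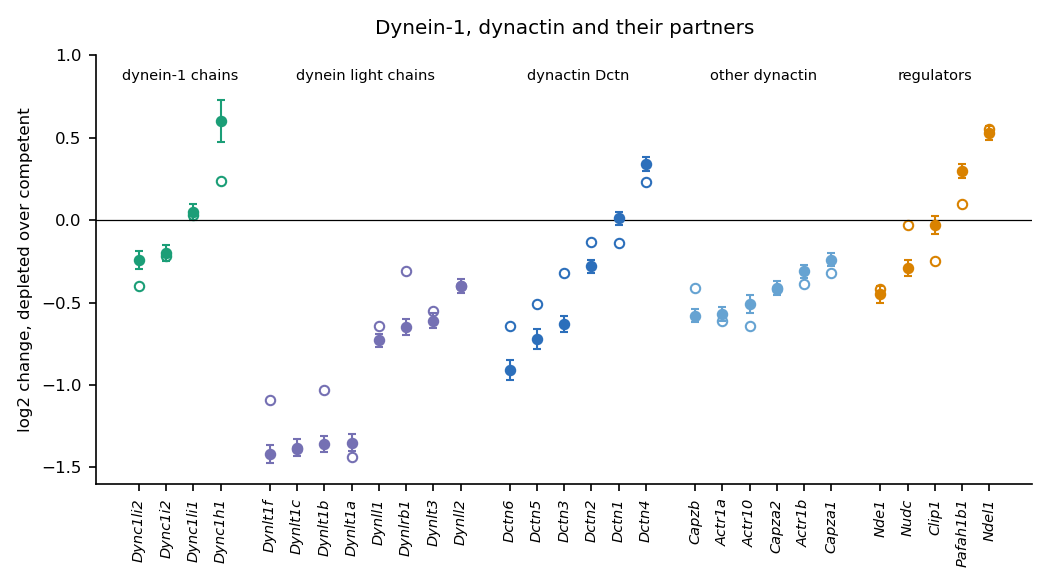
Log2 change (depleted over competent) of dynein-1 chains, dynein light chains, Dctn genes, other dynactin subunits and dynein regulators, with filled points and standard-error bars from edgeR and open circles with the length trend removed. Light chains and the other dynactin subunits all lie below 0 on both measures, whereas Dync1h1 and Dctn4 lie above it.

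Shares per kilobase of main transcript were compared within each sample for sets of related genes. The sets of heavy, light, intermediate and light intermediate chains hold genes that can fill the same place in a motor. The Kif1, Kif13, Kif21 and Kifc sets hold separate motors, so a shift there is no exchange within a motor. The Kifc set leaves out Kifc5b, the near copy of Kifc1. With 3 samples against 3 the exact two-sided permutation test cannot go below p = 0.1, and the lowest adjusted p over 17 shares was 0.121, so no share could pass. Kif5b made up 97.7% to 98.2% of the kinesin-1 heavy chain level in all 6 samples. Among light chains Klc4 took 34.5% ± 0.441 in competent and 39.3% ± 0.701 in depleted cells (SD, n = 3), Klc1 27.1% ± 0.887 and 31.7% ± 1.25, Klc3 23.5% ± 0.616 and 18.0% ± 1.28, and Klc2 14.9% ± 0.866 and 10.9% ± 0.609. None of these shares overlapped between the groups, where the levels of 72.5% of all genes did not overlap either. The light chain shares make up the whole in each sample, so they are not separate observations.

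The largest shift was in the Kif13 pair. Kif13b held 42.4%, 49.6% and 46.4% of it in competent samples against 57.1%, 59.6% and 61.3% in depleted ones. With the union of all exons as length the share of Kif13b was 30.4% ± 3.03 in competent and 42.6% ± 2.14 in depleted cells (SD, n = 3), so which paralog was the more abundant depends on the length used. Among the light intermediate chains, Dync1li1 held 47.2%, 46.0% and 47.0% against 51.1%, 52.2% and 52.0%. Kif1c held 85.2% ± 1.02 and 79.6% ± 0.975 of the Kif1 level. Summed light chains over summed heavy chains of kinesin-1, per kilobase, gave ratios of 1.68, 1.38 and 1.43 in competent and 2.00, 1.86 and 1.92 in depleted samples, so the depleted samples were all higher.

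**Figure D5:**
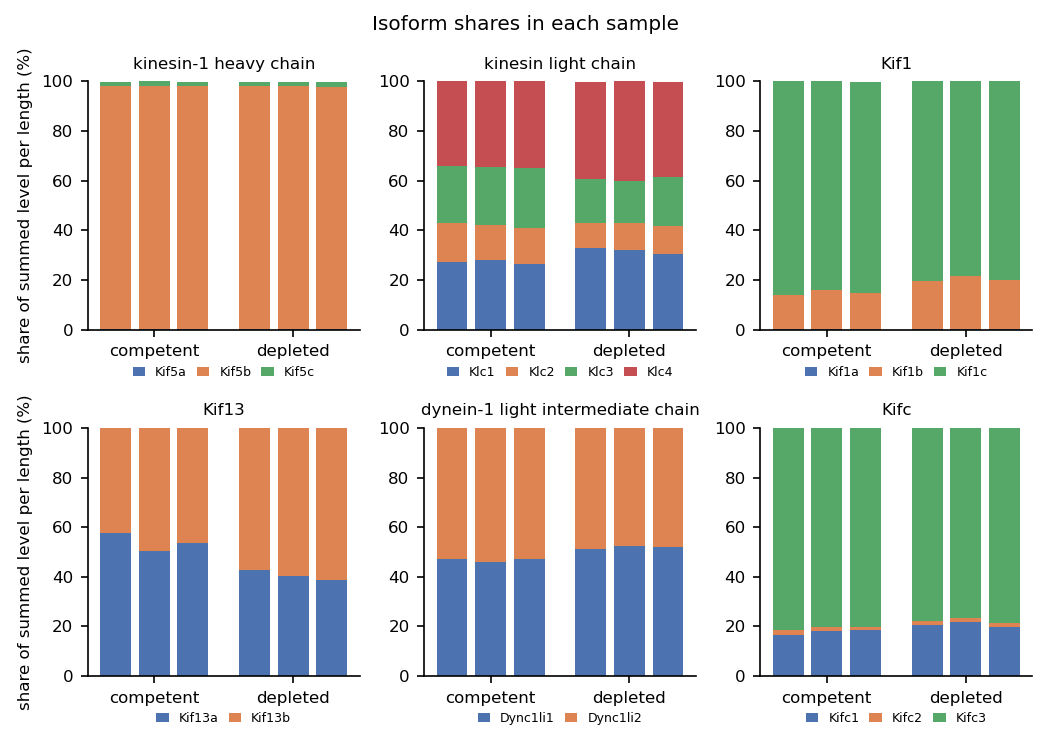
Share (%) of the summed level per kilobase of main transcript held by each gene of 6 sets, with a stacked bar per sample in the order of the replicate numbers. The Kif13b part grows from 42.4% to 49.6% in competent to 57.1% to 61.3% in depleted samples, and Kif5b fills almost the whole kinesin-1 heavy chain bar throughout.

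In the order of levels per kilobase, Dctn2, Dync1i2, Dctn3, Kif1c, Kif12, Kifc3 and Kif5b led in the competent cells, from 116 down to 64.1 RPKM. Neighbours such as Kif1c (73.6 ± 2.03), Kif12 (71.1 ± 4.81), Kifc3 (67.5 ± 0.461) and Kif5b (64.1 ± 5.74 RPKM) differed from the next in order by no more than the larger of their SDs. In the depleted cells the same 7 genes led, with Kif12, Dctn2 (95.3 ± 2.54) and Kifc3 (83.0 ± 2.69 RPKM) in front. The 7 genes that were not tested were Kif2b, Kif22-ps and Kif4-ps with no count, Kif28 with 2 counts in depleted samples, Dync1i1 as above, Kifc5c-ps with 1 count and the antisense gene Kif16bos with 2 counts in each group. A floor of 3 counts corresponds to 0.0796 to 0.119 CPM per sample and covers counting error only. Dync1i1 reached it in depleted replicate 2 alone, and no other of the 7 reached it in any sample.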

How the data were processed

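The authors deposited a table of raw, unnormalized counts, with genes in rows and the 6 samples in columns. Columns were matched to samples by replicate number, WT as cilia competent and KO as cilia depleted. Per the submitters' processing notes STAR 2.7.1a, cutadapt 1.16, featureCounts and DESeq2 1.34.0 were among the tools and GRCm38 was the build; the annotation and strand setting of the counting are not given in the sources used here. Symbols came from the name table used, and 32009 gene identifiers were found in GENCODE M21 (GRCm38), which gave positions and transcript lengths. The main transcript was the APPRIS principal one, then the longest of the basic set.

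All genes were tested in a single fit with edgeR 4.0.16 in R 4.3.3 (filterByExpr by group, TMM scaling, quasi-likelihood F-test, two-sided, Benjamini-Hochberg over all genes, threshold 0.05), with the group as the only term. Standard errors are on the log2 scale. CPM values are TMM-scaled, and RPKM divides them by the main transcript length in kilobases. The code was tested on simulated data. Replicates of a group differed by more than sampling noise (chi-square per degree of freedom 5.33 to 9.44). The length correction was a loess curve (span 0.5) of each library's deviation on log length, used as an offset. Alternatives were DESeq2 1.42.0, limma-voom 3.58.1, scaling by DESeq2-style size factors or upper quartiles, other filters (none, or 1 CPM in 3 samples), the replicate block, leaving out each sample, an adjusted p below 0.01 and a fold above 1.5.

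Per-sample values are given, by role, for up to 3 called genes with the largest change and for the gene with the highest level per kilobase. The genes, lists and alternatives were chosen with earlier results of these data known. Other genes named were chosen after their values were seen.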

Additional observations from a re-analysis of the deposited data

How the results depend on the processing

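Scaling, test, filter and the replicate block left the counts of motor genes that rose or fell within 1.5 times of 16 and 11, and of the 27 calls 24 to 27 remained in each of these settings and with any sample left out. The calls lost were those of Kif5c, Klc1 and Klc4. With a fold above 1.5 required, 7 motor genes rose and 3 fell, made up of 6 rises and 0 falls among kinesins and light chains and 1 rise and 3 falls among dynein-1 and dynactin genes; 2332 of all genes then rose and 1604 fell. Removing the length trend, with or without the replicate block, raised the kinesins and light chains that fell from 5 to 9 and turned Kif1b (-0.13) and Dctn1 (-0.14) to lower; the cause of the trend was not tested. Leaving out each sample gave 14 to 17 motor genes that rose and 10 to 13 that fell, 12 to 15 and 4 to 7 among kinesins and light chains, 2 and 6 throughout among dynein-1 and dynactin genes, and 4537 to 4697 and 4389 to 4671 among all genes. Samples with the same replicate number did not deviate together (correlations -0.0278, 0.0133 and -0.0155). With 3 samples a group this cannot show whether the numbers pair them, and the labels do not say. The replicate block kept 16 rises and all 27 calls and added Kif13a (edgeR, adjusted p = 0.0414) and Kif26b (0.0141). With exon-union lengths the difference in share became 3.33 percentage points for Klc1, 2.59 for Kif1b and -2.63 for Kif1c. Upper-quartile scaling moved the median of all genes to -0.06. With 3 samples a group, changes of low genes such as Kif5a, Kif1a and Kif19a were not resolved at this depth.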

Other observations

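The adaptors that join dynein to cargo and start its movement were mixed. Of 13 tested of 14 listed, 6 rose and 5 fell (edgeR, adjusted p below 0.05), 2 did not pass, and the median log2 change was 0.12. Over all genes 34.9% rose and 34.3% fell, so these counts are near the background. Bicd1, an adaptor of the BicD family, went from 12.7 ± 1.08 to 27.1 ± 0.672 CPM (SD, n = 3; log2 change 1.10), while its paralog Bicd2, the far more abundant of the pair, went from 183 ± 8.85 to 131 ± 1.6 CPM (-0.48). Nin, which encodes the centrosomal protein ninein, fell from 31.8 ± 3.15 to 15.9 ± 0.652 CPM (-1.0), and its paralog Ninl rose (0.41). Rilp, an adaptor of late endosomes, rose from 2.11 ± 0.287 to 3.98 ± 0.637 CPM (0.91). With the length trend removed Nin fell further (-1.30), Bicd1 kept a rise of 0.79, and Hook3, higher before, became lower (0.24 and -0.12).

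Among 15 tested of 17 kinesin adaptors and activators, 9 rose and 3 fell, 3 did not pass, and the median log2 change was 0.16, where 34.9% of all genes rose and 34.3% fell. Plekhm2, which links lysosomes to kinesin-1, went from 23.0 ± 0.842 to 42.0 ± 0.236 CPM (SD, n = 3; log2 change 0.87), and Mapk8ip3, a scaffold that binds kinesin light chains, from 60.4 ± 0.95 to 97.5 ± 7.33 CPM (0.69). Fez1 rose by 1.15 on the log2 scale but was scarce, at 0.249 ± 0.0907 and 0.566 ± 0.0750 CPM. Its paralog Fez2 was abundant and fell from 135 ± 3.29 to 94.6 ± 5.94 CPM (-0.52). With the length trend removed 6 of the 15 rose and 3 fell, and each of these 4 kept its direction and its call.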
